A study of Homo sapiens with 2 samples.

Results

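The genes of peptide processing and loading for MHC class I were described in A375 melanoma cells before and after prolonged attack by cytotoxic T lymphocytes (CTLs). The 10 members were taken by symbol and were all found among the 33538 genes of the deposited tables: TAP1, TAP2, TAPBP, PSMB8, PSMB9, PSMB10, PSME1, PSME2, ERAP1 and ERAP2. The study held 2 single-cell libraries of A375, an established human melanoma cell line. The parental library was untreated. The persister library held the A375 cells that survived 15 days beside CTLs specific for the tumour antigen NY-ESO-1, which were renewed every 3 days, with interleukin 2 added at 7.5 ng/mL. Both came from the same line, and the labels do not say whether parental cells received interleukin 2. There was 1 library per group, so no difference below has a replicate check, no test was run, and intervals (95%) cover counting error only.

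MHC class I molecules display peptides cut from the cell's own proteins. The proteasome makes most of these peptides, the TAP transporter carries them into the endoplasmic reticulum, ERAP aminopeptidases trim them there, and tapasin helps load them onto class I. Interferon-gamma is known to replace the catalytic proteasome subunits PSMB5, PSMB6 and PSMB7 by PSMB8, PSMB9 and PSMB10, which form the immunoproteasome, and to raise the PA28 activator made of PSME1 and PSME2. CTLs recognise the peptide and class I complex that this pathway supplies.

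Of the 10 members, 5 lie on chromosome 6. TAP2, PSMB8, TAP1 and PSMB9 fill 37753 bases there, inside the MHC class II region. In GENCODE 29 (GRCh38), TAP2 spans chr6:32821833-32838780, PSMB8 chr6:32840717-32844703 and TAP1 chr6:32845209-32853978, all on the minus strand, and PSMB9 chr6:32844136-32859585 on the plus strand. TAPBP lies apart from them at chr6:33299694-33314387 (minus strand). PSME1 (chr14:24136158-24138967, plus) and PSME2 (chr14:24143362-24147570, minus) are neighbours on chromosome 14, and ERAP1 (chr5:96760810-96808100, minus) and ERAP2 (chr5:96875939-96919716, plus) on chromosome 5. PSMB10 is at chr16:67934502-67937087 (minus). The RefSeq starts of TAP1 and PSMB9 point away from each other and are 487 bases apart. Promoter sequence is shown because the members were higher together and because TAP1 and PSMB9 differed most. In the 250 bases before each RefSeq start, 3 letter patterns were searched on both strands. The core of an interferon-stimulated response element (ISRE) was taken as GAAA, any 2 bases and GAAA. The GAS element, bound by STAT factors, was taken as TTCNNNGAA. A form of the NF-kB site was taken as GGG, any 2 bases, TT, any base and CC. The table held a window for all 10 members (14 windows, since some genes have more than 1 start). The ISRE core was found in 6 members and in 6 of their 14 windows, against 3.02% of all 35116 windows. GAS was found in 2 members and 2 windows (6.57% of all windows) and the NF-kB form in 3 members and 3 windows (5.07%). A match describes letters only and not a bound site.

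The TAP1 and PSMB9 windows, which together cover the whole interval between the starts of these genes, are printed 5′ to 3′ on each gene's strand (RefSeq, GRCh38.p14), with matches in capitals.
TAP1, chr6:32853705-32853954, minus strand: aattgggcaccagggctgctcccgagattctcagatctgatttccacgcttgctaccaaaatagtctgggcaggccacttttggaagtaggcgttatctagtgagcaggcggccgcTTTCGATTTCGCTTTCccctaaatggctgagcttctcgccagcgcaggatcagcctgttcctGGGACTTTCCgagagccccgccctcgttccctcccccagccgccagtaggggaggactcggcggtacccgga
PSMB9, chr6:32853942-32854191, plus strand: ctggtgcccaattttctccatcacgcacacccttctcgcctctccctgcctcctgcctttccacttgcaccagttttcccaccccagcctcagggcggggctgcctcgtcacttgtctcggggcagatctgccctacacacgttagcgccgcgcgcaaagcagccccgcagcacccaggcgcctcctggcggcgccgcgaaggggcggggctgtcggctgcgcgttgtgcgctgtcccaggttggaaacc
In TAP1 the first capitals are 2 overlapping ISRE cores on the opposite strand, 134 to 119 bases before its start, and the second are an NF-kB form. Counted from PSMB9, the ISRE cores lie 369 to 354 bases before its start, outside its own window, which held no match. A second TAP1 window, not printed, held a GAS match and no ISRE core.

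For the other members with an ISRE core, the last 70 bases before the start show how near it lies, with the core in capitals. TAPBP also has an NF-kB form, which comes first. For ERAP2 the second of its 2 windows is shown.
TAP2, chr6:32838740-32838809, minus strand: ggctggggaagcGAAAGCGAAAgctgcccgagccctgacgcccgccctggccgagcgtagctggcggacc
TAPBP, chr6:33314079-33314148, minus strand: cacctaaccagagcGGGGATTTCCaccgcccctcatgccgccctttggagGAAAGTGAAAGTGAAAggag
PSMB10, chr16:67936851-67936920, minus strand: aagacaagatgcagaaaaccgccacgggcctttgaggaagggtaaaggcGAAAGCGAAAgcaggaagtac
PSME2, chr14:24146611-24146680, minus strand: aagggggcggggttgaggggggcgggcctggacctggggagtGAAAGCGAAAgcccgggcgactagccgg
ERAP2, chr5:96876430-96876499, plus strand: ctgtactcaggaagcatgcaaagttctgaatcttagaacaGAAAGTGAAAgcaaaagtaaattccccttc
The core ended 49 bases before the TAP2 start, 5 before TAPBP (2 overlapping copies), 12 before PSMB10, 19 before PSME2 and 21 before ERAP2. PSMB8 had a GAS match only, in its second window, and ERAP1 an NF-kB form only. PSME1 had no match. Of the constitutive catalytic subunits only PSMB5 had windows in the table, 2 of them, with GAS matches in 1 and no ISRE core.

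Cells were kept with at least 500 genes, 1000 UMIs (distinct molecules counted) and at most 20% mitochondrial UMIs, and with fewer than 3 of 6 T cell markers. This left 10630 parental cells with 88110998 UMIs and 6605 persister cells with 79546026 UMIs, with medians of 7590 and 11284 UMIs per cell. The T cell rule removed 0 parental and 162 persister barcodes. The 2 libraries shared 38 barcodes, 32 of them kept. Of 11 melanoma markers, SOX10, MIA and S100B were present in both libraries, while PMEL, MLANA, TYR and DCT were at or near 0 in both. The 11 T cell markers summed to 2.94 CPM (UMIs per 1000000 UMIs) in the parental and 8.81 CPM in the persister library, and to 6394 CPM over the removed barcodes. Of these sums TRAC alone gave 2.70, 4.46 and 272.5 CPM. CD2, CD8B and GZMB were at 0 in the parental library and no T cell marker was at 0 in the persister library. The NK cell markers summed to 0.386 and 3.03 CPM, of which NCAM1 gave 0.340 and 2.74, the B cell markers to 0.148 and 0.151 CPM, and the monocyte markers to 3.78 and 1.79 CPM. The part of the NK cell markers in the results was not tested.

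All 10 members were at least 2-fold higher in the persister library, where 10.1% of the 9938 measured genes (5 CPM or more in one of the libraries) were. None was lower, against 10.8% of genes. ERAP2 reached 5 CPM only in the persister library and the other 9 in both. The median log2 difference, on the log2(CPM + 1) scale, was 2.15 for the members and -0.15 for all measured genes. At least 4-fold higher were 6 members, against 4.01% of genes. Summed, the members went from 405.2 CPM (401.0 to 409.4) to 2400 CPM (2389 to 2411), 5.92 times the parental level.

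The transporter genes differed from each other. TAP1, which with TAP2 forms the peptide transporter, had 5.32 CPM (4.85 to 5.83) in the parental library and 110.2 CPM (107.9 to 112.5) in the persister library, a 20.7-fold difference (18.9 to 22.8). TAP2 was at 10.5 CPM (9.82 to 11.2) and 28.5 CPM (27.4 to 29.7), 2.72-fold higher (2.52 to 2.94). As a ratio of CPM, TAP1 had the largest fold of the 10 and TAP2 the smallest, although the interval of TAP2 overlapped that of ERAP2. On the log2(CPM + 1) scale ERAP2 was lowest, at 1.35 against 1.36 for TAP2. With a pseudocount of 5 CPM, PSMB9 at 3.78 was above TAP1 at 3.48. Counts from the 3′ ends of transcripts give about 1 UMI per captured molecule and need no length correction, but capture can differ between genes. The ratio of the partners is therefore one of UMIs counted, not of molecules in the cell. It was 0.508 TAP1 UMIs per TAP2 UMI (0.453 to 0.568) in parental and 3.86 (3.69 to 4.04) in persister cells. TAPBP, which encodes tapasin, the bridge between transporter and class I, was at 21.2 CPM (20.2 to 22.1) and 117.4 CPM (115.0 to 119.8), 5.55-fold higher (5.28 to 5.84).

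The immunoproteasome genes were higher by 4.3-fold to 15.6-fold. PSMB9, the inducible form of PSMB6, had 35.1 CPM (33.9 to 36.4) in the parental library and 546.8 CPM (541.7 to 552.0) in the persister library, 15.6-fold higher (15.0 to 16.2). PSMB8, the inducible form of PSMB5, was at 41.7 CPM (40.4 to 43.1) and 283.8 CPM (280.1 to 287.5), 6.80-fold higher (6.57 to 7.05). PSMB10, the inducible form of PSMB7, was the least abundant of the immunoproteasome genes, at 7.94 CPM (7.37 to 8.56) and 34.2 CPM (32.9 to 35.5), 4.30-fold higher (3.96 to 4.68). The ratio of PSMB9 to PSMB8 UMIs went from 0.842 (0.802 to 0.883) to 1.93 (1.90 to 1.96), so their order was opposite in the 2 libraries.

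The PA28 genes were the most abundant members in parental cells. PSME1, one subunit of this proteasome cap, had 111.3 CPM (109.1 to 113.6) in the parental library and 427.8 CPM (423.2 to 432.3) in the persister library, 3.84-fold higher (3.76 to 3.93). PSME2, its partner, was at 160.5 CPM (157.9 to 163.2) and 810.6 CPM (804.3 to 816.9), 5.05-fold higher (4.96 to 5.14). The UMI ratio of PSME2 to PSME1 was 1.44 (1.40 to 1.48) and 1.89 (1.87 to 1.92).

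The trimming peptidases had low levels. ERAP1, which shortens peptides from their amino end, had 9.51 CPM (8.88 to 10.2) in the parental library and 34.0 CPM (32.7 to 35.3) in the persister library, 3.58-fold higher (3.31 to 3.87). ERAP2, a related enzyme with other sequence preferences, was at 2.07 CPM (1.78 to 2.39) and 6.83 CPM (6.26 to 7.43), 3.30-fold higher (2.79 to 3.93). Their UMI ratio, 4.60 (3.92 to 5.44) and 4.98 (4.54 to 5.47) ERAP1 per ERAP2, had overlapping intervals, unlike the TAP and PA28 pairs.

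In order of level, neighbours with overlapping intervals were TAP2 and ERAP1 in parental cells and PSMB10 and ERAP1 in persister cells. TAP1 moved from ninth place, above ERAP2 only, to sixth, just under TAPBP.

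**Figure D1:**
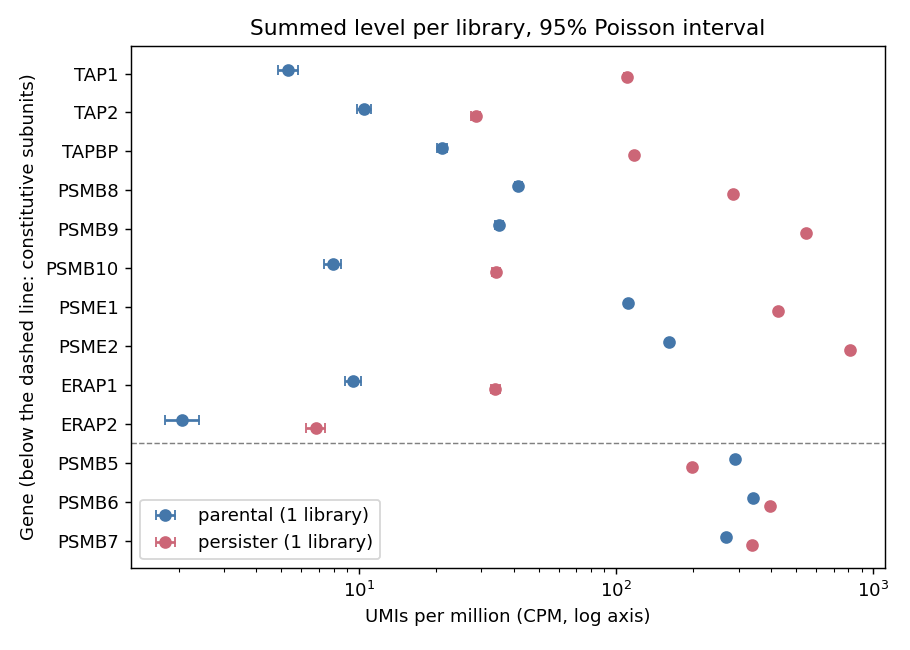
Level of each member and of the constitutive catalytic subunits in CPM on a log axis, in the parental (blue) and persister (red) library, with 95% Poisson intervals. The 10 members lie to the right in the persister library, from 2.72-fold for TAP2 to 20.7-fold for TAP1, while PSMB5, PSMB6 and PSMB7 lie close together.

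The constitutive catalytic subunits did not share this difference. PSMB5, the chymotrypsin-like subunit, had 289.6 CPM (286.1 to 293.2) in the parental library and 197.3 CPM (194.2 to 200.4) in the persister library, 0.681 times the parental level (0.668 to 0.695). PSMB6, the caspase-like subunit, was at 341.9 CPM (338.0 to 345.8) and 394.9 CPM (390.5 to 399.2), a ratio of 1.15 (1.14 to 1.17). PSMB7, the trypsin-like subunit, was at 267.7 CPM (264.2 to 271.1) and 336.2 CPM (332.2 to 340.2), a ratio of 1.26 (1.23 to 1.28). Together they were at 899.2 and 928.3 CPM, a ratio of 1.03 (1.02 to 1.04).

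The inducible subunits therefore made up a larger part of the catalytic UMIs. They were 8.62% (8.43 to 8.81%) in parental and 48.2% (48.0 to 48.5%) in persister cells. PSMB8 made up 12.6% of its pair with PSMB5 in parental and 59.0% in persister cells. PSMB9 made up 9.32% and 58.1% of its pair with PSMB6. PSMB10 made up 2.88% and 9.23% of its pair with PSMB7, so PSMB7 UMIs still outnumbered it in both libraries. These are shares of RNA molecules counted, not of assembled proteasomes.

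**Figure D2:**
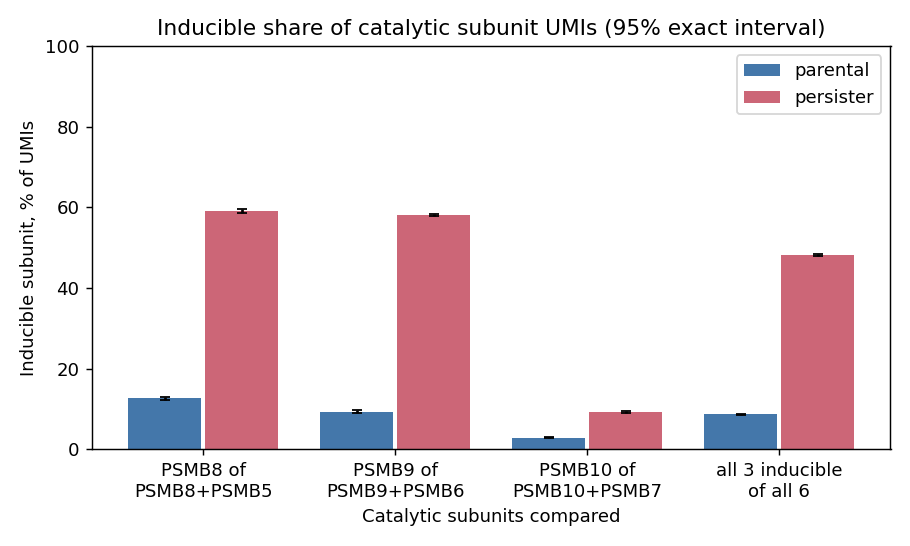
Inducible subunit as a percentage of the UMIs of each catalytic pair, and of all 6 subunits, with 95% exact intervals, in the parental (blue) and persister (red) library. PSMB8 and PSMB9 pass 50% in persister cells at 59.0% and 58.1%, while PSMB10 reaches 9.23%.

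The rest of the pathway was read from lists of other genes, each counted at the same 2-fold limits. Of all 9938 measured genes 10.1% were higher, 10.8% lower and 7867 passed neither limit. A short list with few or no genes past a limit is therefore near the share of all genes. None of the 11 other subunits of the 20S core was at least 2-fold higher or lower (median log2 difference 0.06). PSMA4 was highest in ratio at 423.0 against 722.8 CPM, followed by PSMA2 at 131.0 against 187.1 CPM, and PSMA7 was lowest in ratio at 1826 against 1406 CPM. None of the 17 subunits of the 19S cap passed either limit (median -0.32). PSMD3 (67.4 and 35.1 CPM), PSMD12 (244.0 and 140.5 CPM) and PSMC5 (240.2 and 140.1 CPM) were furthest from the parental level. None of 9 other activator and assembly genes did (median -0.29). Among these PSME3, which forms the nuclear PA28-gamma cap, was at 138.6 and 81.8 CPM, and the assembly chaperones PSMG2 and PSMG1 were at 57.8 and 33.8 CPM and at 91.4 and 64.7 CPM.

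Of 7 other peptidases, 1 was higher and 2 lower, where 10.1% and 10.8% of all measured genes were. LAP3, a cytosolic leucine aminopeptidase, had 56.4 CPM in the parental library and 335.8 CPM in the persister library, 5.95-fold higher (5.77 to 6.14). THOP1, which destroys peptides in the cytosol, was at 27.9 and 12.0 CPM, and BLMH, bleomycin hydrolase, at 49.5 and 22.9 CPM.

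Of 13 loading partners of class I, 7 passed the upper limit and 1 the lower (median log2 difference 1.87). The heavy chain genes HLA-F and HLA-B were 34.4-fold and 29.8-fold higher. HLA-F had 1.40 and 48.0 CPM, and HLA-B 110.6 and 3297 CPM. Counts of these near-identical genes depend on how shared reads were treated and are uncertain. The next 2 genes were chosen after their values were seen. CALR, the chaperone calreticulin of the peptide-loading complex, was the 1 lower gene, at 750.3 CPM (744.6 to 756.0) and 295.0 CPM (291.2 to 298.8). TAPBPL, which encodes the tapasin-related protein TAPBPR, was at 2.35 and 11.2 CPM, 4.78-fold higher (4.10 to 5.59). Of 10 regulators, 6 passed the upper limit and 0 the lower (median 1.28). IRF1, a factor that binds ISRE sequences, was 55.7-fold higher, and CIITA, the class II transactivator, was 8.11-fold higher. NLRC5, the class I transactivator, also chosen after its value was seen, was at 2.35 and 19.8 CPM, 8.43-fold higher (7.29 to 9.80).

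Neighbouring genes on the chromosome were compared by position, taking on each side the nearest measured protein-coding gene that is no member and does not overlap. Beside TAPBP, PFDN6 was at 93.6 and 94.3 CPM and DAXX at 55.6 and 31.1 CPM. Beside PSMB10, PSKH1 and SLC12A4 had ratios of 1.23 and 0.913. Beside ERAP2, LNPEP, a related aminopeptidase, was at 22.7 and 25.4 CPM. At the TAP and PSMB cluster the neighbours were class II genes, HLA-DQA2 (5.77 and 82.8 CPM) and HLA-DMB (9.89 and 27.4 CPM). The neighbours of PSME2 were EMC9 (44.1 and 34.3 CPM) and IRF9, a factor of the type I interferon response (2.13 and 25.2 CPM).

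Some members overlap other annotated genes, and whether counting used strand was not given in the sources used here. TAP1 lies within the longest annotated PSMB9 range on the opposite strand, and PSMB8 overlaps PSMB9 by 568 bases. PSMB8-AS1, an RNA transcribed opposite PSMB8, had 102 and 1574 UMIs and overlaps PSMB9 by 2360 bases on the same strand. Also on the same strand, TAP2 lies within AL669918.1, which had 0 and 1 UMIs, and PSMB10 overlaps AC040162.1, with 192 and 124 UMIs. ERAP1 overlaps CAST on the opposite strand, which was far more abundant at 329.4 and 340.2 CPM. PSME2 overlaps RNF31 (36 and 21 UMIs) and ERAP2 the antisense gene AC009126.1 (63 and 67 UMIs). The levels of TAP1, TAP2, PSMB8, PSMB9, PSMB10, PSME2, ERAP1 and ERAP2 are uncertain for this reason. The UMIs of an overlapping gene do not bound this uncertainty, also where they are few.

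Single cells were compared at an equal depth of 5000 randomly drawn UMIs. Too shallow for this were 1536 cells of the parental and 708 of the persister library. At this depth 16.3% (15.6 to 17.1%) of parental and 92.0% (91.3 to 92.7%) of persister cells had a PSMB9 UMI. PSME2 was seen in 55.6% (54.6 to 56.6%) and 97.5% (97.1 to 97.9%), and PSMB8 in 18.7% (17.9 to 19.5%) and 75.5% (74.4 to 76.6%). TAP1 was seen in 2.56% (2.25 to 2.91%) and 42.1% (40.9 to 43.4%), and TAPBP in 9.95% and 43.7%. TAP2, PSMB10, ERAP1 and ERAP2 were seen in 1.01 to 4.83% of parental and 3.37 to 15.8% of persister cells. A cell without a UMI of such a gene is not shown to lack it. At 10000 UMIs, TAP1 was seen in 5.24% of 2576 parental and 63.0% of 4013 persister cells, and PSMB9 in 30.7% and 98.7%. Without thinning the shares were 4.27% and 65.6% for TAP1 and 24.5% and 94.9% for PSMB9. These libraries gave no cell type known to lack the members from which to read a background share. In the removed T cell barcodes, with a median of 3568 UMIs, TAP1 was seen in 38.9% and PSMB9 in 64.8%. These barcodes also held melanoma marker RNA, so their shares are not those of T cells alone.

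**Figure D3:**
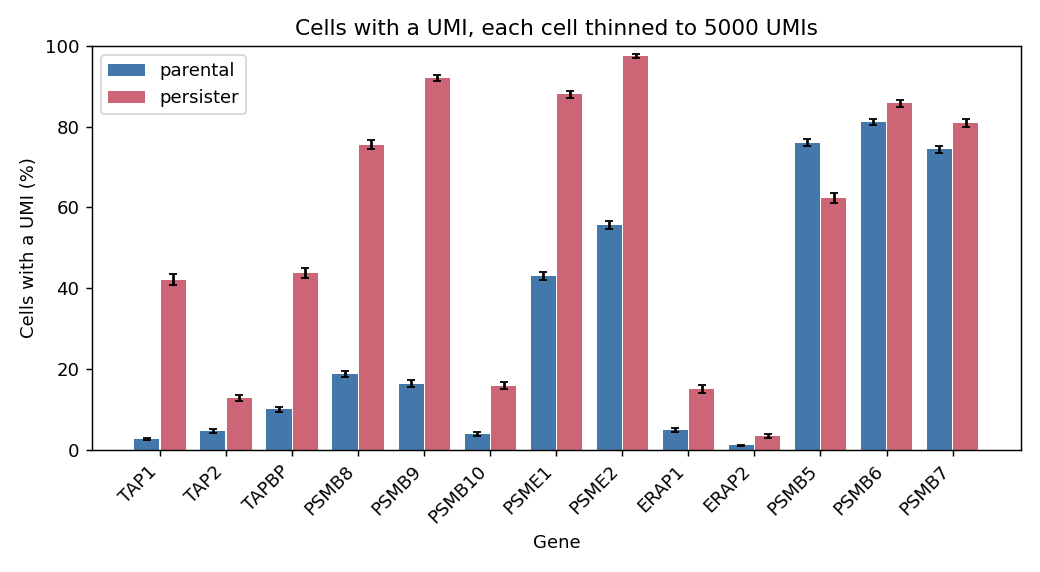
Percentage of cells with at least 1 UMI of each gene after thinning to 5000 UMIs per cell, with 95% exact intervals, in the parental (blue) and persister (red) library. PSME2, PSMB9 and PSME1 are seen in 88.0 to 97.5% of persister cells, and PSMB5 is seen in fewer persister cells (62.2%) than parental cells (76.0%).

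The number of members seen in a cell also differed. Parental cells had a median of 2 of the 10 members with a UMI and persister cells a median of 5. Of 9094 parental cells 1226 (13.5%) had none, against 0 of 5897 persister cells, which allows a share of up to 0.0509%. No cell of either library had all 10. The summed member UMIs had a median of 2 in parental cells (5th to 95th percentile 0 to 5) and 12 in persister cells (6 to 20). Of persister cells, 96.1% (95.5 to 96.5%) lay above the parental 95th percentile, and 232 cells did not. No parental cell reached the persister median, which allows a share of up to 0.0330%.

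**Figure D4:**
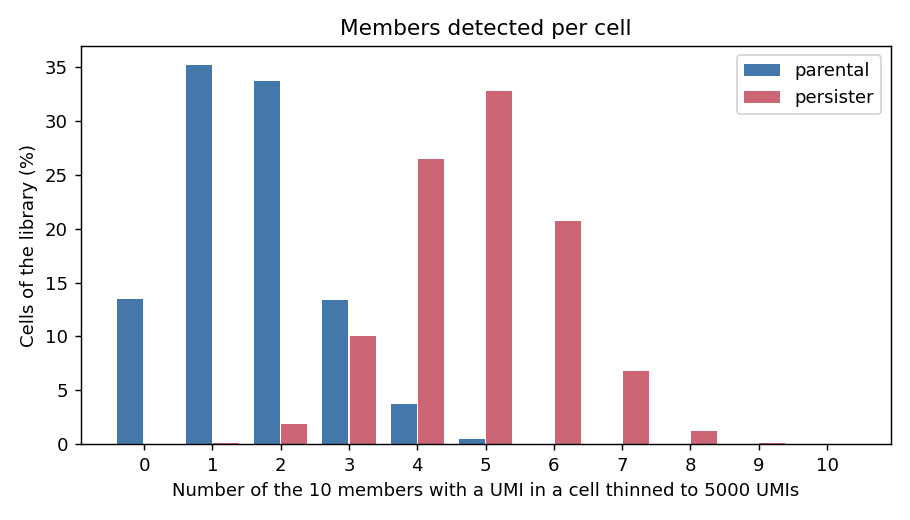
Percentage of cells of each library (vertical axis) by the number of the 10 members with a UMI after thinning to 5000 UMIs (horizontal axis), parental in blue and persister in red. Parental cells peak at 1 and 2 members and persister cells at 5, with overlap at 1 to 6 members.

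The inducible share per cell was taken in cells with at least 5 catalytic UMIs, inducible and constitutive together. These were 5055 of 9094 parental and 5494 of 5897 persister cells. High inducible counts themselves help a cell to pass this limit, so the 2 sets are not chosen alike. The share had a median of 0% in these parental cells (quartiles 0 and 16.7%) and 50% in these persister cells (quartiles 36.4 and 60.0%). It passed 50% in 0.257% of the parental and 40.2% of the persister cells. Both counts per cell were small, with a median of 4 inducible and 4 constitutive UMIs over all 5897 thinned persister cells.

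The variance of thinned UMIs across persister cells divided by their mean, which is 1 for pure counting, was 1.22 for PSMB9, 1.18 for PSME2, 1.10 for TAP1 and 0.995 for ERAP2. At low means this ratio stays near 1 whatever the spread between cells, so it does not show that a member varied little. Pairwise correlations across 5897 persister cells were weak. The 45 member pairs had a median Pearson r of 0.0187 (log2(UMI + 1)), from -0.0272 for PSMB10 with ERAP2 to 0.0923 for PSMB8 with PSME2. Member pairs with PSMB5, PSMB6 or PSMB7 had a median of 0.00429, and the 3 constitutive pairs 0.0292. In parental cells the member median was 0.00800. All points of a library share that library and its depth, and correlations this weak in sparse counts are no finding.

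Sums over members were less sparse. At 10000 UMIs, in 4013 persister cells, the immunoproteasome sum and the PA28 sum had r = 0.229, the immunoproteasome and the TAP1, TAP2 and TAPBP sum 0.156, and the immunoproteasome and ERAP sum 0.0345. The constitutive subunits had r = 0.0280 with the immunoproteasome sum, -0.0262 with the transporter sum, 0.0715 with the PA28 sum and 0.00227 with the ERAP sum. In 2576 parental cells the immunoproteasome and PA28 sums had r = 0.0579, and the constitutive and PA28 sums 0.0710. The sum of all members had r = 0.390 with the sum of B2M and 5 class I heavy chain genes in persister cells and 0.0433 in parental cells. Only 2576 of 10630 parental and 4013 of 6605 persister cells reached 10000 UMIs. At 5000 UMIs, the depth of the single pairs, values in persister cells were lower. There the immunoproteasome sum had r = 0.147 with PA28, 0.0644 with the transporter sum and 0.0233 with ERAP. All members with the class I sum had 0.325 in persister and 0.0268 in parental cells at that depth.

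The genes most like the member sum were sought among 5009 genes seen in at least 10% of persister cells thinned to 5000 UMIs. The highest Pearson r was 0.293 for B2M, the class I light chain, followed by HLA-B at 0.253. LGALS1, a galectin, had 0.225, and CD74, the class II invariant chain, 0.222. ISG15, a ubiquitin-like interferon-response protein, had 0.209. ATOX1, a copper chaperone, had 0.190, IFITM3, an antiviral membrane protein, 0.187, IFI35 0.180 and VAMP5 0.174. The median over all candidates was -0.00587. In parental cells, where member counts were lower and r is pulled toward 0, the same genes had values from -0.0356 for CD74 to 0.0586 for LGALS1.

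Persister cells were ordered by the UMIs of 12 interferon-response genes that are not members, among them IRF1, GBP1, ICAM1 and SOCS1, and split in 4 groups of 1474 or 1475 cells. The summed member UMIs were 10.7, 12.0, 12.7 and 13.7 per cell from the lowest group to the highest, 1.29 times as high in the highest (1.26 to 1.32). PSMB5, PSMB6 and PSMB7 together were at 4.70 and 4.69, a ratio of 0.999 (0.966 to 1.03). TAP1 went from 0.408 to 0.782 UMIs per cell, a ratio of 1.91 (1.73 to 2.12), TAPBP had 1.58 (1.43 to 1.74) and ERAP1 1.55 (1.29 to 1.88). PSMB9 had 1.31 (1.26 to 1.37), PSMB8 1.25 (1.18 to 1.33), PSME1 1.23 (1.17 to 1.30) and PSME2 1.21 (1.17 to 1.26). For TAP2, PSMB10 and ERAP2 the interval included 1 at this depth. With cells thinned to 10000 UMIs it did not. The ratio was then 1.24 (1.05 to 1.46) for TAP2, 1.27 (1.09 to 1.47) for PSMB10 and 1.94 (1.38 to 2.77) for ERAP2. TAP1 had 1.96 (1.79 to 2.14) and the constitutive subunits together 1.01 (0.984 to 1.04). Among these, PSMB7 had 1.10 (1.05 to 1.15), which also excluded 1 and overlapped the intervals of TAP2 and PSMB10. PSMB5 had 0.957 (0.899 to 1.02) and PSMB6 0.971 (0.929 to 1.01). In the lowest group the members were still above the parental mean, with PSMB9 seen in 88.9% of its cells and TAP1 in 32.7%.

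**Figure D5:**
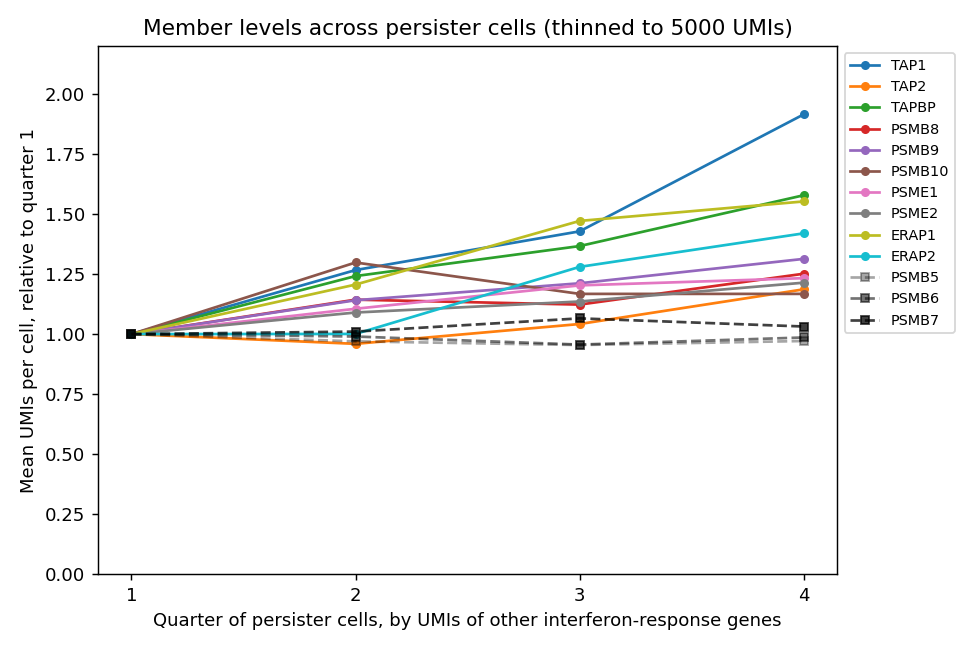
Mean UMIs per cell of each member (coloured lines) and of PSMB5, PSMB6 and PSMB7 (dashed) across 4 groups of persister cells ordered by 12 other interferon-response genes, relative to group 1. TAP1 reaches 1.91, TAPBP 1.58 and ERAP1 1.55, while the constitutive subunits stay near 1.

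Cells of each library were also split in 3 groups by UMIs of 17 cell cycle genes. The lowest group had a median of 11 such UMIs in the parental and 0 in the persister library, so the groups of the 2 libraries are not matched. In the persister library the members summed to 13.3 UMIs per cell in the lowest group and 11.4 in the highest, 1.17 times as high in the lowest (1.15 to 1.19). The same ratio was 1.24 (1.14 to 1.34) for TAP1, 1.17 (1.13 to 1.22) for PSMB9 and 1.02 (0.990 to 1.05) for the constitutive subunits. In the parental library the members were at 2.12 and 2.04 UMIs per cell, a ratio of 1.04 (1.01 to 1.08), and the constitutive subunits had the same ratio, 1.04 (1.02 to 1.06).

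The T cell barcodes also held these genes. The removed T cell barcodes held 112.3 CPM of TAP1 and 451.4 CPM of PSMB9, beside 110.2 and 546.8 CPM in the persister cells. They also held melanoma RNA, since the 11 melanoma markers summed to 624.4 CPM there and to 1499 CPM in the persister cells. How much of their TAP1 and PSMB9 came from tumour cells was not tested. RNA of T cells was estimated from the 6 markers at 0.211% of the persister UMIs, which would supply 0.166 to 0.313% of each member's level except 0.904% for ERAP2. TRAC, the most abundant of the 6 in persister cells at 4.46 CPM, was also at 2.70 CPM in parental cells. The estimate is therefore not shown to be T cell RNA alone, and the part of TRAC was not tested. Kept cells were also chosen to have fewer than 3 of these markers. Kept cells with at least 1 of the 6 T cell markers were 2.33% of parental and 6.40% of persister cells. Without them all 10 members were still at least 2-fold higher, from 2.71-fold to 21.2-fold, and each log2 difference stayed within its counting interval.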

How the data were processed

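RNA of single A375 cells was measured in 2 libraries made with the 10x Chromium 3′ kit, per the labels' protocols. The authors deposited raw UMI counts for each gene in each barcode, per the file headers. Cell Ranger 3.1.0 and GRCh38 are named in the submitters' processing notes, and the annotation release was not given in the sources used here. UMIs of kept cells were summed per library and scaled to 1000000 UMIs (CPM). A gene counted as measured from 5 CPM in one of the libraries. With 1 library per group there is no test. Intervals are exact Poisson, conditional binomial for ratios and Clopper-Pearson for shares, and cover counting error only. The limit for a count of 0 is 3 counts of the total. Per-cell values used thinning without replacement to 5000 UMIs (numpy 2.4.6), except where another depth is given. The steps were tested on simulated data. In the simulation for correlations, genes had far more UMIs per cell than the members, so sparse counts were not covered. The members and lists were chosen with earlier results of these data known. Named genes are the 10 members, PSMB5, PSMB6 and PSMB7, up to 3 genes per list with the largest absolute log2 difference, and the 10 genes most correlated with the member sum. Some genes that these rules take are not reported here. Positions are from GENCODE 29, matched by ID for 33456 of 33538 IDs, and promoters from RefSeq. No doublet caller was run. The alternatives were TMM scaling (edgeR 4.0.16), cell and T cell filters, the pseudocount, thinning depth and low-cycle cells.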

Additional observations from a re-analysis of the deposited data

How the results depend on the processing

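All 10 members stayed at least 2-fold higher with TMM scaling, a stricter cell filter (2000 genes, 5000 UMIs, 10% mitochondrial), no T cell exclusion, no cell with a T cell marker, the mean of CPM per cell and the cells lowest in cell cycle UMIs. That last choice was made within each library and left medians of 11 parental and 0 persister cell cycle UMIs, so it does not compare cells of equal cycle state. At a 4-fold limit 6 were. The median log2 difference of the members was 2.26 with TMM scaling, which moved the median of all measured genes from -0.15 to -0.03 and the share of higher among changed genes from 48.3% to 58.8%. It was 2.06 with a pseudocount of 5 CPM. ERAP2 ranged most, from 0.74 to 1.68. The median number of members seen per cell moved with depth and was 1 parental and 3 persister at 2500 UMIs, 3 and 6 at 10000 UMIs, and 6 in persister cells without thinning. The median pair correlation was 0.186 without thinning, where cells differ in depth, and 0.0212 in a second random thinning added after the data were seen. The inducible share in persister cells was 47.9% with the stricter filter and 50.2% in the cells lowest in cell cycle UMIs. The ratio of the last to the first interferon group was 1.34 at 10000 UMIs. No paired analysis was possible because each group has 1 library. Low counts limit TAP2, PSMB10, ERAP1 and ERAP2 per cell.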
